A study of Equus caballus with 3 samples.

Results

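Among the MSCs that grew from the peripheral blood (PB) of a mare, a minority carried many transcripts of *CCL2*, the monocyte-attracting CC chemokine. These cells were selected on their *CCL2* values, as the kept PB barcodes with at least 15 *CCL2* UMIs per 10,000 UMIs, and numbered 462 of 5318 kept PB-derived MSCs (8.69%, 95% interval 7.94 to 9.48%) and of 16301 kept cells in the series. They are called CCL2-high cells here. The other 4856 kept PB-derived MSCs served for comparison. All cells came from 1 healthy warmblood mare of 10 years. They were captured after the second passage in culture by droplet 3' single-cell RNA sequencing, in which barcodes mark the cell and unique molecular identifiers (UMIs) mark each transcript molecule. Donor-matched MSCs from adipose tissue (AT) and bone marrow (BM) were captured in the same way, with 1 library per source, so that source and library cannot be told apart. Tissue sources follow the sample titles, because all 3 samples carry blood mononuclear cells as their source name.

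Chemokines are small secreted proteins that guide leukocytes through G protein-coupled receptors. CC chemokines such as *CCL2* and *CCL7* attract mainly monocytes, and CXC chemokines of the ELR group, including *CXCL1*, *CXCL6* and *CXCL8*, attract neutrophils. In stromal cells their genes are classic targets of NF-kB, the transcription factor that inflammatory cytokines activate, whereas *CXCL9*, *CXCL10* and *CXCL11* respond to interferons and attract T cells. The data are RNA counts, so secretion of these proteins was not measured.

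Levels are sums of UMIs over the cells of a group per 1000000 UMIs (CPM), with exact 95% Poisson intervals, and differences are log2(CPM + 1) of the CCL2-high minus the other cells. No test was run, because the cells of 1 library are not replicates, and all intervals cover counting error only. A gene is called higher or lower when its log2 difference was at least 1 in size, or at least 0.5 where stated. The CCL2-high cells held 3843130 UMIs and the other cells 37779315. Their medians per cell were 8126 and 7721 UMIs, 2276 and 2167 genes, and 1.62% and 1.54% mitochondrial UMIs. Barcodes were shared between the matrices. Every one of the 5318 kept PB barcodes also occurred in the AT matrix, there mostly as barcodes with few UMIs (medians of 869.5 for CCL2-high and 826 for other cells), and 4 CCL2-high and 33 other barcodes were kept as cells in AT too. In the BM matrix, 2 CCL2-high and 46 other barcodes recurred. The AT counts of these barcodes had 3646 CPM of *CCL2* under the CCL2-high barcodes and 165 CPM under the others. Whether the shared barcodes hold the same molecules was not tested.

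The values used for selection form a continuous range (*CCL2* lies on chromosome 11, minus strand, in the EquCab3.0 assembly of the files). CCL2-high cells had 4 to 351 *CCL2* UMIs with a median of 24, or 15 to 323 per 10,000 UMIs with a median of 29.4. Of the other cells 2168 had a *CCL2* UMI, with at most 20. Just outside the threshold, 199 cells had 10 to 15 *CCL2* UMIs per 10,000, and just inside it 132 cells had 15 to 20. The threshold therefore cuts through a tail and not through a gap, as the distribution over cells shows.

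**Figure D1:**
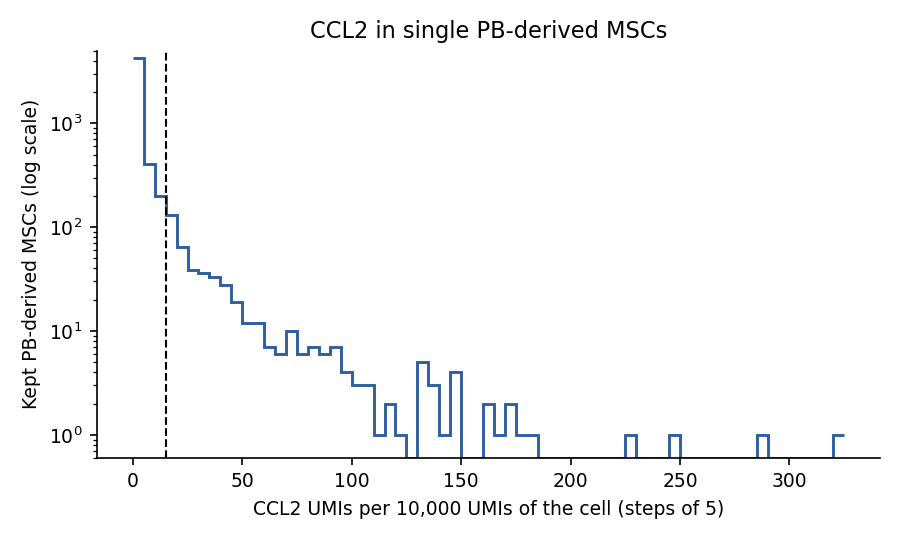
Number of kept PB-derived MSCs (y axis, log scale) by *CCL2* UMIs per 10,000 UMIs of the cell (x axis, steps of 5), with the threshold of 15 as a dashed line and steps without cells at the foot of the axis. The counts fall without a gap through the threshold, and the 462 cells to its right reach 323.

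Surface genes of MSCs were found in both groups. None of the 5 with at least 10 CPM differed by a log2 of 0.5, where 4.56% of all genes were higher and 1.67% lower by that much: *CD44* had 478 CPM in CCL2-high and 526 CPM in other cells, *THY1* 92.9 and 90.3 CPM, *ENG* 67.1 and 70.8 CPM, *B2M* 2011 and 1758 CPM and *ITGB1* 273 and 197 CPM. The log2 difference of *ITGB1* was 0.47 (bounds 0.35 to 0.59), beyond counting error. The leukocyte marker list summed to 4.94 CPM (95% interval 2.98 to 7.72) in CCL2-high and 5.66 CPM (95% interval 4.93 to 6.48) in other cells. Of its 14 genes in the matrix, 12 including *PTPRC* (CD45) and *CD14* were at 0 in CCL2-high cells, and 18 of the 19 UMIs were of *CD68*. The endothelial list had 1 UMI in CCL2-high cells, and the pericyte list had 54.9 and 61.5 CPM. *PTPRC* and *CD14* were thus not detectable at this depth, where 3 UMIs over the CCL2-high cells are 0.781 CPM.

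Chemokine RNA was higher in CCL2-high cells. Across 6337 genes with at least 10 CPM over all kept PB-derived MSCs, *CCL2* left out, 55 genes (0.868%) were higher in CCL2-high cells by a log2 difference of at least 1 and 5 (0.0789%) were lower. At 0.5 the numbers were 289 (4.56%) and 106 (1.67%), and the median gene differed by 0.04. Of the 55 genes, 11 reached 10 CPM only through the CCL2-high cells and so had to differ. The 6 highest ranks were chemokines, of which all but *CCL7* reached 10 CPM only through the CCL2-high cells. Of 14 CC chemokines in the matrix, *CCL2* included, *CCL7*, *CCL20* and *CCL26* were abundant enough to compare and all 3 were higher. The same held for all 5 of 12 CXC and CX3C chemokines that could be compared, *CXCL1*, *CXCL6*, *CXCL10*, *CXCL11* and *CXCL16*. Of these 8 chemokines, only *CCL7*, *CCL26* and *CXCL16* reached 10 CPM in the other cells alone.

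*CCL7*, a monocyte attractant that neighbours *CCL2* in mammalian chemokine clusters and lies on the same chromosome and strand here, was the chemokine shared by most CCL2-high cells. Its level was 516 CPM (95% interval 493 to 539) in CCL2-high and 41.9 CPM (95% interval 39.9 to 44.0) in other cells, a log2 difference of 3.59 (bounds 3.46 to 3.72). A *CCL7* UMI was found in 313 CCL2-high cells (67.7%) and in 18.2% of other cells. With every cell thinned to 2500 UMIs the shares were 45% and 7.99%. CCL2-high cells made up 8.69% of the cells and held 55.6% of all *CCL7* UMIs.

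The neutrophil attractant *CXCL6* (chromosome 3, minus strand) was present in fewer cells at a larger ratio. It had 224 CPM (95% interval 209 to 239) in CCL2-high and 7.70 CPM (95% interval 6.84 to 8.64) in other cells, a log2 difference of 4.69 (bounds 4.44 to 4.94). A UMI was found in 89 CCL2-high cells (19.3%) and in 2.47% of other cells, or 10.8% and 1.11% after thinning. Of all *CXCL6* UMIs, 74.7% lay in CCL2-high cells, and the 10 cells with the most held 51.6% of those. Without these 10 cells the log2 difference was 3.68. *CXCL1* had 101 CPM in CCL2-high cells and 6.11 CPM in the others, with a UMI in 16.2% and 3.27% of cells. Reads of these related genes can be shared between copies, so the split among *CXCL1*, *CXCL6* and *CXCL8* is uncertain.

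*CCL20*, which attracts CCR6-bearing lymphocytes and dendritic cells, had 168 CPM (95% interval 155 to 181) in CCL2-high and 3.07 CPM (95% interval 2.54 to 3.68) in other cells, from 53 CCL2-high cells (11.5%) and 0.762% of the others. *CCL26*, an eosinophil attractant, was common in both groups at 150 CPM and 65.3 CPM. *CXCL16*, a transmembrane chemokine, had 58.8 CPM and 28.6 CPM. Its log2 difference of 1.01 was 0.56 in thinned cells, with CCL2-high cells chosen again on the thinned counts. That of *CCL26* was 0.63 without the 10 CCL2-high cells highest in it.

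The interferon-type chemokines rested on few cells. *CXCL10* had 246 CPM in CCL2-high and 6.56 CPM in other cells (log2 difference 5.03), but it was found in 29 CCL2-high cells, 10 of which held 94.6% of its UMIs. *CXCL11* ranked first, with 112 CPM against 0.529 CPM (log2 difference 6.21), from 7 cells. A single cell carried 234 of its 431 UMIs. Without the 10 highest CCL2-high cells, a drop not made in the other cells, the log2 difference of *CXCL10* was 0.95. For *CXCL11* this drop left no UMI in CCL2-high cells, so that its value of -0.61 was fixed by the drop.

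Below 10 CPM lay further chemokines, named after their values were seen. *CXCL8*, the principal neutrophil attractant, had 307 UMIs in 30 CCL2-high cells and 61 UMIs in 24 other cells, and *CXCL2* had 21 and 14 UMIs. *CXCL12*, the stromal chemokine that retains blood progenitors in the marrow, had 1 UMI in CCL2-high and 22 UMIs in other cells. No *CCL8* UMI was counted in either group. Among chemokine receptors, *ACKR3* alone could be compared and had 22.9 and 19.1 CPM.

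**Figure D2:**
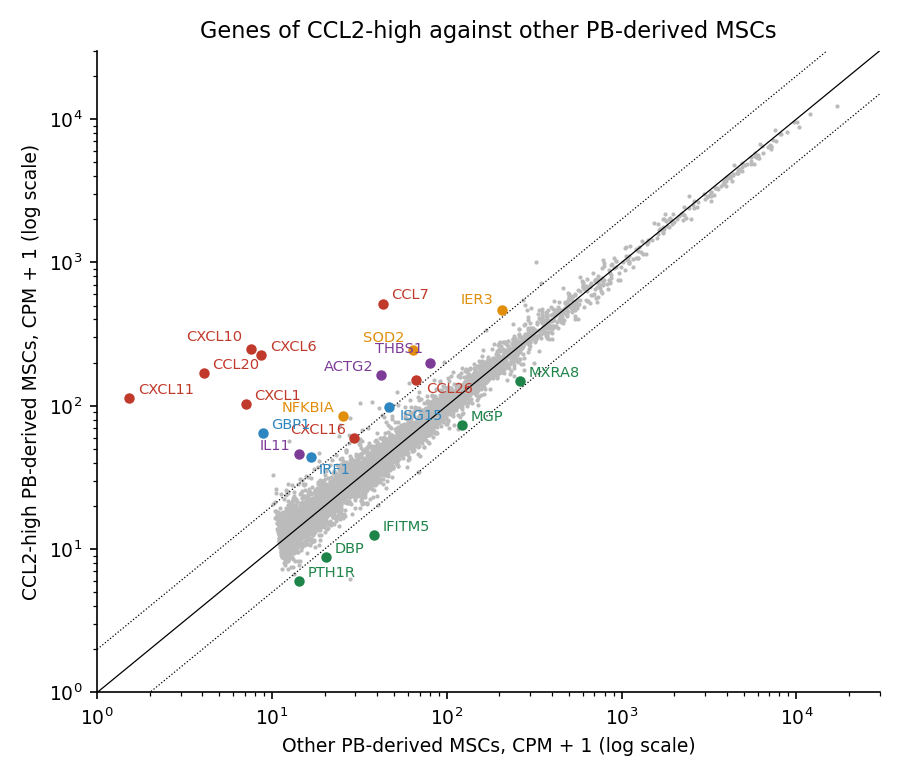
Summed level of each of 6337 genes in the other PB-derived MSCs (x axis) and in the CCL2-high cells (y axis), both as CPM + 1 on log scales, with lines of equality (solid) and of a 2-fold difference (dotted); chemokines are red, NF-kB genes orange, interferon-stimulated genes blue, contractile and associated genes purple and lower genes green. The 6 genes farthest above the diagonal are chemokines. All of them except *CCL7*, at 516 against 41.9 CPM, reached 10 CPM only through the CCL2-high cells and so had to be higher. Most genes lie within the dotted lines.

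Chemokines occurred together in cells. At least 1 chemokine other than *CCL2* was found in 407 CCL2-high cells (88.1%, 95% interval 84.8 to 90.9%) and in 2521 other cells (51.9%, 95% interval 50.5 to 53.3%), or in 66.7% and 26.2% after thinning. At least 3 were found in 144 CCL2-high cells (31.2%) and 204 other cells (4.20%), or in 12.8% and 0.494% after thinning. The highest number was 9, in 2 CCL2-high cells. In contrast, 55 CCL2-high cells had no other chemokine UMI. The level that ambient RNA reaches could not be read from a cell type without chemokines, since none was identified. In 288 PB barcodes with under 1000 UMIs, *CCL7* had 66.8 CPM (95% interval 28.9 to 132) and *CXCL6* 25.1 CPM (95% interval 5.17 to 73.3). Both lay below the CCL2-high cells, and the intervals held the levels of the other cells, 41.9 and 7.70 CPM.

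The chemokines did not follow *CCL2* in the same way over its range. *CCL7* had 24.3 CPM in the 2688 cells without a *CCL2* UMI, 156 CPM at 10 to 15 and 174 CPM at 15 to 20 *CCL2* UMIs per 10,000, with overlapping intervals on either side of the threshold, and 829 CPM in the 227 cells at 30 and above. *CCL20* had 21.8 CPM at 15 to 20 and 11.1 CPM at 20 to 30, and reached 323 CPM at 30 and above. *CXCL6* had 15.4 CPM at 10 to 15, 89.3 CPM at 15 to 20, 47.8 CPM at 20 to 30 and 382 CPM at 30 and above. The higher levels of *CCL20*, *CXCL1* and *CXCL10* thus lay mainly in cells with the most *CCL2*.

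**Figure D3:**
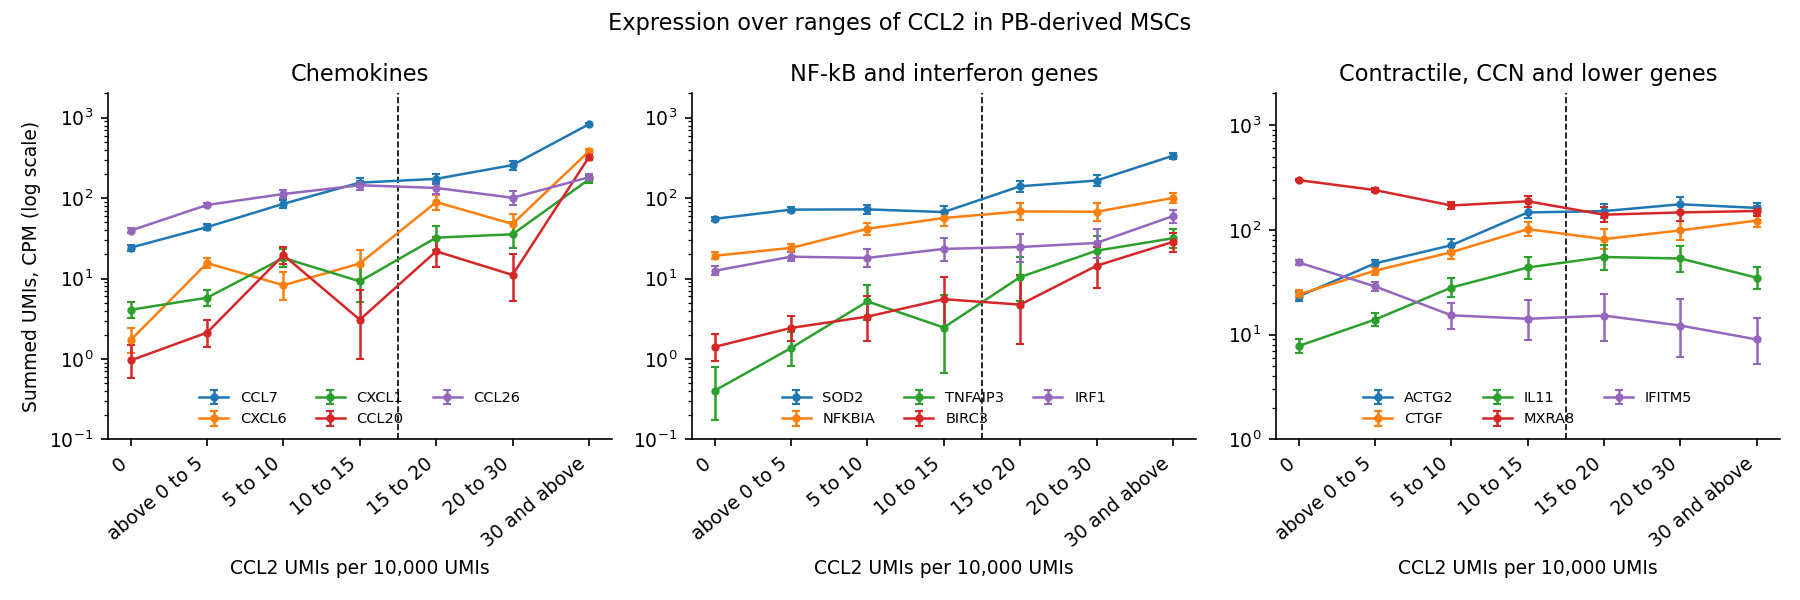
Summed levels in CPM (y axis, log scale) of chemokines, of NF-kB and interferon genes, and of contractile, CCN and lower genes over 7 ranges of *CCL2* UMIs per 10,000 UMIs (x axis), with 95% Poisson intervals; the dashed line marks the threshold of 15. *CCL7*, *SOD2* and *TNFAIP3* are highest at 30 and above, whereas *ACTG2* levels off below the threshold, at 147 CPM in the range of 10 to 15.

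Genes of the NF-kB pathway were higher beside the chemokines. Of 13 list genes that could be compared, 6 were higher by a log2 difference of at least 0.5 and none was lower, with a median of 0.49, where 4.56% of all genes were higher. *SOD2* (chromosome 31, plus strand), the mitochondrial superoxide dismutase that NF-kB induces, had 243 CPM (95% interval 227 to 259) in CCL2-high and 63.1 CPM (95% interval 60.6 to 65.7) in other cells, a log2 difference of 1.93 (bounds 1.78 to 2.08). It was found in 44.6% and 24.2% of cells, or 25.1% and 10.0% after thinning. Of 19 antioxidant genes, *SOD2*, *GCLC* at 0.68 and *SRXN1* at 0.53 were higher, against the same 4.56% of all genes, and the list median was 0.07.

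*NFKBIA*, which encodes IkB-alpha, an inhibitor that terminates NF-kB signalling, was among these genes. It had 84.0 CPM (95% interval 75.1 to 93.7) against 24.5 CPM (95% interval 22.9 to 26.1), with a UMI in 40.9% and 15.1% of cells, and its 10 highest cells held only 16.7% of the UMIs. *IER3*, an early response gene against apoptosis, had 464 CPM and 206 CPM. *BIRC2*, *TRAF3* and *BCL3* were higher by 0.99, 0.80 and 0.58 on the log2 scale. The list had 32 genes in the matrix, and those not compared did not reach 10 CPM. Of these, *TNFAIP3* (A20), *BIRC3*, *ICAM1* and *VCAM1* are named after their values were seen. They are examples and not a tally, and the others below 10 CPM are not described. *TNFAIP3* had 91 UMIs in CCL2-high and 47 UMIs in other cells, and *BIRC3* had 72 and 80 UMIs. The leukocyte adhesion molecules *ICAM1* and *VCAM1* had 116 and 98 UMIs and 73 and 22 UMIs. In CPM these were 23.7 against 1.24 for *TNFAIP3*, 18.7 against 2.12 for *BIRC3*, 30.2 against 2.59 for *ICAM1* and 19.0 against 0.582 for *VCAM1*. *NFKB2*, a subunit of the factor itself, had 20.8 and 16.5 CPM.

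Transcripts of *TNF*, *IL1A* and *IL1B*, cytokines known to activate NF-kB, were scarce in the kept PB-derived MSCs. No *TNF* or *IL1B* UMI was counted in any of them, and *IL1A* had 3 UMIs in CCL2-high and 1 UMI in other cells. The cytokine *IL6* had 9 and 7 UMIs. Of 9 cytokine and receptor genes that could be compared, *IL11*, *TNFRSF12A* and *IFNGR2* were higher by at least 0.5, against 4.56% of all genes, and the list median was 0.27. *TNFRSF12A*, the receptor for TWEAK, had 714 CPM and 344 CPM. *SAA1*, an acute-phase protein, had 55.4 CPM and 11.4 CPM, from 16 CCL2-high cells of which 10 held 94.4% of the UMIs. Its log2 difference of 2.18 was -1.56 without those 10, with no cell dropped from the others. Horses carry several near-identical *SAA* genes, so this count is uncertain. Of 7 immunomodulatory genes, *PTGES*, which makes prostaglandin E2, was higher with 170 CPM against 107 CPM.

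Part of the interferon-stimulated genes were higher. Of 26 list genes, 7 were higher by at least 0.5 and none was lower, where 4.56% of all genes were higher, but *GBP1* and *DDX58* reached 10 CPM only through the CCL2-high cells and so had to be higher. *GBP1*, a guanylate-binding protein induced by interferon gamma, had 63.2 CPM and 7.83 CPM, and *ISG15*, a ubiquitin-like modifier, had 96.8 CPM and 45.8 CPM. The RNA sensor *DDX58* (RIG-I) had 31.7 CPM and 9.18 CPM, and the transcription factor *IRF1* had 42.7 CPM and 15.6 CPM. *PSMB9*, *EPSTI1* and *TAP1* differed by 0.92, 0.65 and 0.55. *IRF1* was found in 113 CCL2-high cells (24.5%), *PSMB9* in 94 (20.3%) and *GBP1* in 53 (11.5%). Cells with at least 15 UMIs of the list per 10,000 UMIs above the PB median numbered 115 of the CCL2-high and 788 of the other cells. Without them the log2 difference was 0.18 for *ISG15*, 0.02 for *PSMB9* and 1.18 for *GBP1*, list genes that this selection itself holds low. Outside the list, *CXCL11* was at 0.21, *CCL7* at 3.38 and *CXCL6* at 4.63. Without its 10 highest CCL2-high cells *ISG15* was at -0.21, with no cell dropped from the others.

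A further group consisted of contractile, plasminogen and CCN genes. *ACTG2*, the smooth muscle gamma actin, had 162 CPM (95% interval 150 to 175) in CCL2-high and 41.2 CPM (95% interval 39.2 to 43.3) in other cells, with a UMI in 22.5% and 11.8% of cells. Of 9 YAP and CCN genes, 5 were higher by at least 0.5, where 4.56% of all genes were: tissue factor *F3* by 1.71, *CTGF* by 1.51, *THBS1* (thrombospondin 1) by 1.31, *CYR61* by 0.53 and *AMOTL2* by 0.50. *IL11*, a fibrogenic cytokine of the IL-6 family, had 44.8 CPM and 13.2 CPM. Of 11 contractile genes, *ACTG2*, *CNN1* at 0.85 and *VCL* at 0.50 were higher, against the same 4.56% of all genes, and *ACTA2* and *TAGLN* differed by 0.28 and 0.20. Of 12 genes compared in the plasminogen and metalloproteinase list, 9 lay between -0.5 and 0.5, and the list median was 0.05. The urokinase gene *PLAU* at 0.85 and its receptor *PLAUR* at 0.62 were among those higher, where 4.56% of all genes were. *ACTG2* and *CTGF* levelled off over the range of *CCL2*. *ACTG2* had 23.2 CPM in cells without *CCL2*, 147 CPM at 10 to 15 and 162 CPM at 30 and above, and *CTGF* had 24.3, 102 and 123 CPM, so that cells just outside the threshold were close to the CCL2-high cells in both.

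Cell cycle genes were also higher. Of 8 S phase genes that could be compared, all were higher by at least 0.5, although *MCM4* and *GINS2* reached 10 CPM only through the CCL2-high cells and so had to be higher. Of 14 G2M genes 7 were higher, where 4.56% of all genes were. The replication factor *MCM5* had 35.1 CPM and 16.4 CPM, and *CKS2*, which binds the mitotic kinases, had 202 CPM and 95.4 CPM. Cells just outside the threshold were close to the CCL2-high cells in *MCM5*. It had 9.37 CPM in cells without *CCL2*, 37.0 CPM at 5 to 10, 31.4 CPM at 10 to 15 and 27.5 CPM at 30 and above. *CKS2* had 60.8, 160, 113 and 185 CPM in the same ranges. *UBE2C* had 124 CPM and 68.6 CPM. Among cells at or below the PB median of the summed S and G2M genes, 193 CCL2-high and 2466 other cells, *CCL7* was at 4.12 on the log2 scale, *CXCL6* at 4.74 and *SOD2* at 2.45. In these cells *CTGF* was at 1.43, while *ID1* was at 0.28 compared with 0.99 in all cells, and 8 cell cycle genes changed sign, among them *MCM5* at -0.32. *ID1* and *ID3*, inhibitors of differentiation that respond to BMP, had 543 against 273 CPM and 463 against 285 CPM in all kept cells.

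Of 13 immediate early genes, *ZFP36* was higher by 0.56 and *DUSP1* by 0.51, *FOS* itself differed by -0.41, and *FOSL1*, at 1.24, reached 10 CPM only through the CCL2-high cells and so had to be higher. The share of all genes higher by 0.5 was 4.56%. *ALDH1A3*, which makes retinoic acid, was higher, alone of 6 retinoic acid genes, with 156 CPM and 67.6 CPM.

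Few genes were lower in CCL2-high cells. *IFITM5*, an osteoblast membrane protein that marks another state of these blood MSCs, had 11.4 CPM (95% interval 8.32 to 15.4) against 37.5 CPM (95% interval 35.6 to 39.5), with a UMI in 7.36% and 16.9% of cells. *PTH1R*, the parathyroid hormone receptor of osteoblasts, had 4.94 CPM and 13.2 CPM, and *DBP*, a circadian transcription factor, had 7.81 CPM and 19.5 CPM. *TUBB2B*, a tubulin, *CH25H*, which makes 25-hydroxycholesterol, and *FAP*, fibroblast activation protein, had 33.6 against 68.3 CPM, 19.3 against 39.4 CPM and 5.72 against 12.4 CPM, and *MORC3* was at -0.87. *ENSECAG00000005938* and *ENSECAG00000008979*, which have no symbol in the files, were at -2.16 and -0.99. *MXRA8*, a matrix remodelling-associated membrane protein, had 147 CPM (95% interval 135 to 160) and 262 CPM (95% interval 257 to 267). It had 298 CPM in cells without *CCL2*, 171 CPM at 5 to 10, 187 CPM at 10 to 15 and 151 CPM at 30 and above. *IFITM5* had 48.9, 15.3 and 14.2 CPM in the first 3 of these ranges. It had 15.2 CPM at 15 to 20 and was lowest at 30 and above. Both genes were thus already lower in cells just outside the threshold, where *IFITM5* was close to its level just inside. Of 8 genes that mark other states of blood MSCs, *IFITM5*, *MGP* at -0.74, *PLTP* at -0.57 and *PIGK* at -0.53 were lower, and *ID1*, *ID3*, *NSG1* at 0.58 and *TFPI2* at 0.54 were higher, where 1.67% of all genes were lower and 4.56% higher by at least 0.5. In thinned cells, with CCL2-high cells chosen again on the thinned counts, *PLTP*, *PIGK*, *NSG1* and *TFPI2* were within 0.5 of 0. They were at -0.27, -0.24, 0.04 and 0.08. None of 16 fibrillar matrix genes differed by 0.5, a count near those shares of all genes, and their median was -0.11. *COL1A1* had 5366 CPM and 6105 CPM.

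The CCL2-high cells were not uniform. Cells with a *CXCL6* UMI (89, median of 9562 UMIs) differed from those without (373, median of 7879 UMIs) in the neutrophil chemokines *CXCL1*, at 293 against 46.5 CPM, and *CXCL8*, at 301 against 16.7 CPM. *CCL20* was at 674 against 22.8 CPM. Of the 53 CCL2-high cells with *CCL20*, 35 also had *CXCL6*. *SOD2* was 608 and 138 CPM, *ICAM1* 78.4 and 16.4 CPM and *SAA1* 168 and 23.1 CPM in these subsets, whereas *CXCL10* had 215 and 255 CPM and *GBP1* 58.5 and 64.6 CPM. The 29 cells with *CXCL10* had 854 CPM of *GBP1* against 11.4 CPM in the other 433 CCL2-high cells, 1006 against 37.2 CPM of *ISG15*, 245 against 27.2 CPM of *PSMB9* and 1378 against 168 CPM of *SOD2*, and all *CXCL11* and *CXCL9* UMIs of the CCL2-high cells. *CXCL8* was 33.8 and 82.9 CPM there. *IRF1* was at 186 CPM in the cells with *CXCL10* and 33.3 CPM in the other 433. It was not limited to the former, with 44 UMIs in them and 120 UMIs in the other 433.

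The CCL2-high cells were also split by *ACTG2*, which was found in 23 of the 89 cells with *CXCL6* and in 81 of the 373 without. The 104 CCL2-high cells with an *ACTG2* UMI had a median of 10854.5 UMIs, and the 358 without had 7699. *IL11* was 132 CPM in the former and 10.2 CPM in the latter, *F3* 235 and 51.2 CPM, *ID1* 1166 and 297 CPM, *CKS2* 440 and 109 CPM, *MCM5* 84.4 and 15.6 CPM and *CCL26* 341 and 73.7 CPM. Conversely, *CCL7* was 217 CPM with and 634 CPM without *ACTG2*, *SOD2* 61.5 and 315 CPM, *NFKBIA* 39.5 and 102 CPM, *TNFAIP3* 5.51 and 30.9 CPM, *ALDH1A3* 59.7 and 194 CPM and *GBP1* 11 and 83.9 CPM. *CXCL8* did not follow *CCL7*, with 238 CPM in the cells with *ACTG2*, from 12 cells. In the *CXCL6* split, *ACTG2* at 235 against 141 CPM and *CKS2* at 380 against 152 CPM lay in the same direction as *SOD2*. *MCM5* had 50.3 and 30.8 CPM there, with overlapping intervals. A UMI is found more easily in cells with more UMIs, and the part of depth in these splits was not tested.

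**Figure D4:**
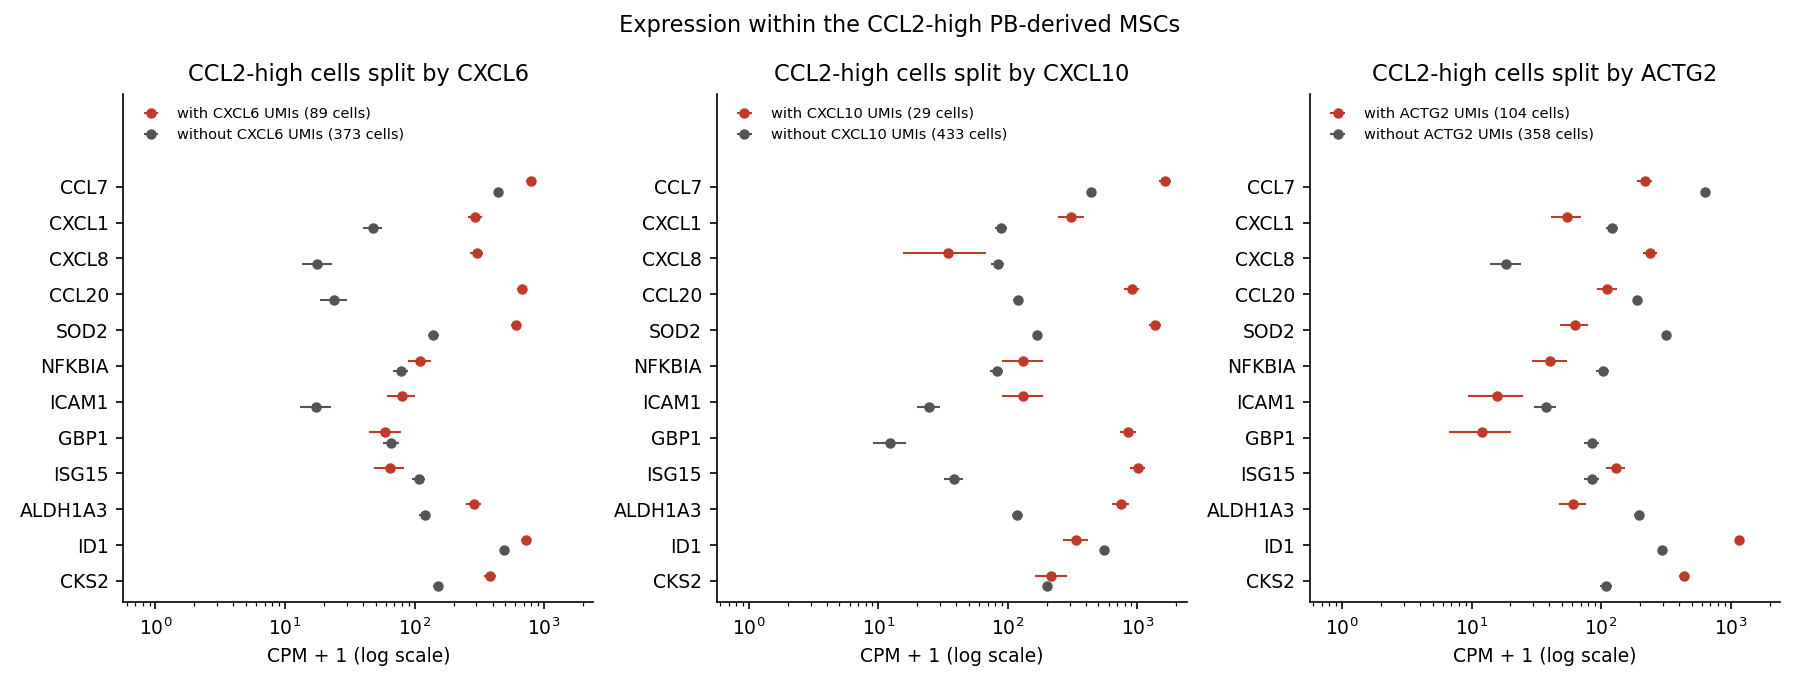
Summed levels of 12 genes (CPM + 1, log scale, with 95% Poisson intervals) in CCL2-high cells with (red) and without (grey) UMIs of *CXCL6*, *CXCL10* or *ACTG2*. The sums of *CXCL8* and *CCL20* differ between the *CXCL6* subsets, although only 21 and 35 of the 89 cells with *CXCL6* had a UMI of them. Those of *GBP1* and *ISG15* differ between the *CXCL10* subsets. Those of *ID1* and *CKS2* differ between the *ACTG2* subsets, where *CCL7* and *SOD2* lie the other way.

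The same rule was applied to the other sources. It found 581 of 5580 kept BM-derived MSCs (10.4%, 95% interval 9.62 to 11.2%) and 13 of 5403 kept AT-derived MSCs (0.241%, 95% interval 0.128 to 0.411%). In BM, *CCL7* was again higher, with 106 CPM (95% interval 95.8 to 116) and 23.0 CPM (95% interval 21.5 to 24.6), a log2 difference of 2.15 (bounds 1.92 to 2.38) compared with 3.59 in PB. *CXCL6* had 47.4 CPM and 25.5 CPM, *CXCL1* 23.7 CPM and 12.4 CPM, and *CCL26* 316 CPM and 228 CPM. *SOD2* had 47.7 CPM (95% interval 41.2 to 54.9) and 43.7 CPM (95% interval 41.5 to 45.9), with overlapping intervals. *NFKBIA* was higher by 0.99, *IER3* by 0.71 and *ISG15* by 1.25. Of 13 NF-kB list genes compared in BM, 3 were higher by at least 0.5, and the list median was 0.12. Of 21 interferon-stimulated genes *ISG15* alone was, and their median was -0.02. The share of all genes higher by that much in BM was 0.933%. No *CXCL10* or *CXCL11* UMI was counted in the BM CCL2-high cells.

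Fewer genes differed in this direction in BM. Of 6860 genes compared there, 64 (0.933%) were higher and 254 (3.7%) lower by at least 0.5, and the median was -0.01. Named genes were chosen on their PB differences, so all of them had to be higher or lower in PB. Of 62 named genes with at least 10 CPM in BM, 54 were higher in PB, and of these 11 were higher in BM, 15 lower and 28 between. All 8 that were lower in PB were between in BM. Cell cycle genes had opposite signs: 12 of 15 S phase genes and 16 of 16 G2M genes were lower in BM CCL2-high cells, with medians of -0.70 and -1.72. *ACTG2* had 119 CPM in BM CCL2-high and 191 CPM in other BM cells, a log2 difference of -0.68 compared with 1.95 in PB. Of 12 contractile genes compared in BM, it alone was lower by at least 0.5, and 1 was higher. The YAP and CCN genes did not share its direction. Of 10 compared in BM, *F3* at 0.92, *CTGF* at 0.84 and *CYR61* at 0.63 were higher by at least 0.5 and none was lower. Whether the sources differ was not tested, with 1 library each.

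**Figure D5:**
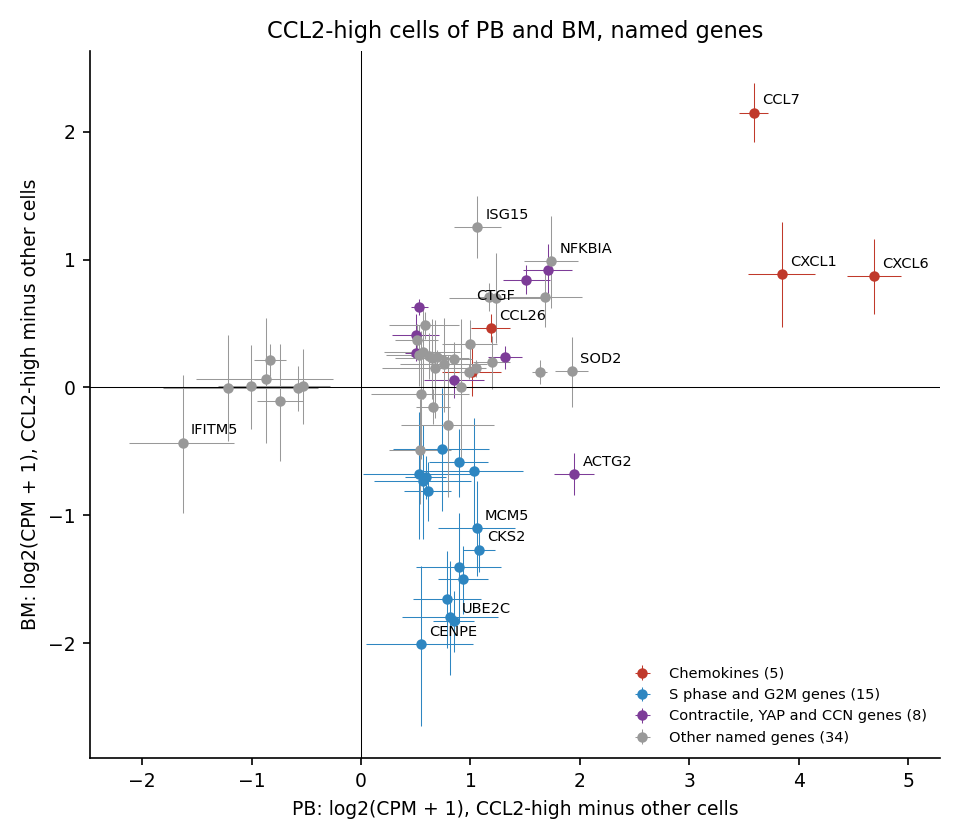
Log2(CPM + 1) differences of CCL2-high minus other cells in PB (x axis) and in BM (y axis) for the 62 named genes with at least 10 CPM in BM; the bars join the outer bounds of the Poisson intervals of both groups. *CCL7* lies highest in BM at 2.15, and the 15 S phase and G2M genes (blue) lie above 0 in PB and below 0 in BM, although *MCM4* and *GINS2* among them had to be higher in PB because they reached 10 CPM there only through the CCL2-high cells.

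The 13 AT cells held 75392 UMIs, in which 3 UMIs are 39.8 CPM. *CCL7* had 743 CPM (95% interval 561 to 965) there and 3.58 CPM in other AT cells, *CXCL6* 358 CPM (95% interval 236 to 521) and 3.43 CPM, and *IL11* 915 CPM (95% interval 712 to 1158) and 14.3 CPM. *ACTG2* had 1194 and 420 CPM. Of the genes also given for BM, the log2 difference in AT was 1.57 for *SOD2*, 1.89 for *NFKBIA* and 2.10 for *IER3*. *ISG15* went the other way, at -4.80. Of these 13 barcodes, 5 also occurred in the PB matrix. In the 8 others *CCL7* had 829 CPM and *CXCL6* 389 CPM. Among BM CCL2-high cells, 14 barcodes recurred in AT and 4 in PB, and in the 567 barcodes that did not, the log2 difference was 2.17 for *CCL7*, 0.89 for *CXCL6* and -0.70 for *ACTG2*. In PB, the 456 CCL2-high cells whose barcode was not kept in AT or BM had 52 genes higher by a log2 of at least 1.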

How the data were processed

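PB-, BM- and AT-derived equine MSCs (1 library each, 10x 3' chemistry, version 2) were analysed from the matrices that the authors deposited, which hold raw UMI counts (whole numbers, not normalized). CellRanger, for mapping to EquCab3.0, and then ESAT, for counting, had been run by the authors. Genes carry the symbols of the matrices. With the UMI and mitochondrial limits of the paper, a barcode was kept when it had 2500 to 15000 UMIs, no more than 3% of them mitochondrial. Cells with at least 15 *CCL2* UMIs per 10,000 UMIs, a split that is not the paper's, were compared with the rest. Counts were summed and scaled to CPM, and log2(CPM + 1) differences were taken for genes with at least 10 CPM over both groups, *CCL2* left out. Intervals (95%) are exact Poisson for sums and Clopper-Pearson for shares (SciPy 1.17.1), cover counting error only, and give the outer bounds of log2 differences. No p-value was computed, because each source had 1 library; the edgeR comparisons across single cells that the paper ran were not repeated. The DoubletDetection step of the paper was not repeated. Doublets were limited by the upper UMI bound, with Scrublet scores (Scanpy 1.11.5) as an alternative. TMM factors came from edgeR 4.0.16. The arithmetic was tested on simulated Poisson counts.

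The cells, the 21 gene lists and the alternatives were chosen with earlier results of these data known, so no list is independent evidence. Named genes are *CCL7*, *CXCL6* and *SOD2*, every list gene with at least 10 CPM and a log2 difference of at least 0.5 in size, and the 15 highest and 10 lowest differences, apart from genes stated to be named after their values were seen and 1 gene that is not reported here. Alternatives changed the *CCL2* threshold, cell filters, thinning, scaling, pseudocount, gene filter, or the comparison cells.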

Additional observations from a re-analysis of the deposited data

Results flagged for a closer look

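Of the named genes with at least 10 CPM in both sources, 15 were higher in CCL2-high cells of PB and lower in those of BM, each by a log2 difference of at least 0.5. Over all genes, 4.56% were higher in PB and 3.7% lower in BM by that much. Named genes were chosen on their PB differences, so the PB share is no baseline for them. *MCM4* and *GINS2* reached 10 CPM in PB only through the CCL2-high cells and so had to be higher there. The difference between the sources was not tested, since each had 1 library. *ACTG2* was at 1.95 in PB and -0.68 in BM. Of the S phase genes, *MCM5* was at 1.06 and -1.10, *MCM4* at 1.03 and -0.65, *RRM2* at 0.89 and -1.40, *MCM6* at 0.89 and -0.59, *TYMS* at 0.61 and -0.81, *PCNA* at 0.59 and -0.70 and *GINS2* at 0.53 and -0.68, in PB and BM. Of the G2M genes, *CKS2* was at 1.08 and -1.27, *BIRC5* at 0.93 and -1.50, *UBE2C* at 0.85 and -1.83, *CDK1* at 0.82 and -1.80, *NUSAP1* at 0.79 and -1.65, *AURKA* at 0.57 and -0.73 and *CENPE* at 0.54 and -2.01.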

How the results depend on the processing

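The number of CCL2-high cells ranged from 330 to 661 over the alternatives. With a threshold of 10 the share was 12.4% (44 genes higher and 3 lower by a log2 of at least 1, where 55 and 5 were reported), and with 20 it was 6.21%, with 9 lower. All kept PB barcodes recur in the AT matrix, so the planned run without shared barcodes left no cell. In thinned cells the CCL2-high cells were chosen again on the thinned counts, which gave 498 cells, of which 408 were CCL2-high at full depth. There 25 genes were lower. The number of genes lower was 9 without the highest Scrublet scores, 8 with TMM factors, which shift the median by -0.09, and 8 against cells under 5 *CCL2* UMIs per 10,000. It was 22 in cells low in S and G2M genes and 9 without cells high in interferon genes. A pseudocount of 25 CPM gave 19 higher and 0 lower, weighting by UMI decile 35 higher, no gene filter 208 and 41, and a filter at 50 CPM 14 and 1. Dropping from each gene its 10 highest CCL2-high cells, chosen after seeing the data, left 15 higher and 73 lower, since it lowers every gene by construction.

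Of 1200 values of 75 named genes over 16 alternatives, 965 stayed within the counting bounds of the reported value and 218 moved outside them with the same sign. Of the 75 genes, 45 still differed by at least 0.5 with a pseudocount of 25 CPM or without their 10 highest cells. That number was 53 among cells low in S and G2M genes, 56 in thinned cells, 62 with TMM factors and 75 without the highest Scrublet scores. The remaining 17 values changed sign. Among cells low in S and G2M genes, which the selection itself holds low, *BIRC5* was at -0.36, *CDK1* -0.19, *GINS2* -0.82, *MCM5* -0.32, *NUSAP1* -0.26, *PCNA* -0.21, *RRM2* -0.17 and *TYMS* -0.20. The drop of the 10 highest CCL2-high cells was not made in the other cells and left *CXCL11* no UMI. After it, *CXCL11* was at -0.61, *SAA1* -1.56, *AURKA* -0.070, *CDK1* -0.074, *CENPE* -0.19, *GINS2* -0.016, *ISG15* -0.21, *NSG1* -0.11 and *TFPI2* -0.12. Apart from these settings the cause was not tested. *CCL7* (3.01 to 4.12), *CXCL6* (2.93 to 4.90) and *SOD2* (1.25 to 2.45) stayed above a log2 of 1 in these 16 alternatives. The alternative gene filters are not among them. *CXCL6*, at 7.70 CPM in the other cells, reached 10 CPM only through the CCL2-high cells and so had to be higher. No paired analysis was possible because each source had 1 library and the result comes from no test.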

Other observations

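Under the AT copies of the PB barcodes, the CCL2-high set had 480 CPM (95% interval 417 to 550) of *CCL7* and the other set 37.1 CPM (95% interval 31.6 to 43.3), *CXCL6* 216 and 6.92 CPM and *SOD2* 285 and 64.8 CPM. The corresponding PB values were 516 and 41.9 CPM, 224 and 7.70 CPM, and 243 and 63.1 CPM.

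*ACKR4*, an atypical receptor that removes CC chemokines, lay below 10 CPM over all kept PB-derived MSCs and is named after its value was seen. It had 5.72 CPM in CCL2-high and 10.3 CPM in other PB-derived MSCs, and a UMI in 4.11% and 6.07% of cells. *CCL5* had 7 UMIs in 3 CCL2-high cells and 1 UMI in the other cells.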
